A study of Mus musculus with 2 samples.

Results

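The comparison set 164 cells of an activated culture of hippocampal neural stem cells against 174 cells of a quiescent culture, 338 of the 640 cells in the per-cell table. Members were chosen by the condition that the authors' per-cell table gives each cell, and every gene of the merged count table entered. The cells were grown from hippocampi of C57BL6/J males at 6 weeks of age, and both cultures share this source. The activated culture grew in 20 ng/mL FGF2 and EGF with 5 ug/mL heparin. The quiescent culture had EGF removed, FGF2 kept and 50 ng/mL BMP4 added, and was taken as quiescent after 3 days. Single cells were sorted into 384-well plates from 4 gates of rising punctate autofluorescence. By brightness the gates are low, low-mid, mid-high and then high. The remaining cells of the series belong to 2 cultures on their way out of quiescence, at 24 h and 48 h in activation medium with 0.5 ug/mL noggin.

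Adult neural stem cells can rest for long periods in a reversible state outside the cell cycle. In culture, BMP4 together with FGF2 holds them in such a state, in which they resemble astrocytes, and EGF with FGF2 keeps them dividing. BMP ligands act through SMAD proteins on target genes that include the Id genes and several inhibitors of the same pathway, whereas growth factors act through receptor tyrosine kinases on D-type cyclins, which open the way into S phase.

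Each state was 1 culture, and the activated and quiescent cultures lay on different plates, so state and plate cannot be told apart and no p-value was computed. The quiescent culture shared its plate with the 24 h cells and the activated culture with the 48 h cells, and no well position was used by both. Cells per gate numbered 34 to 46 in the activated and 42 to 45 in the quiescent culture, with summed transcript counts of 6563487 and 4815934. Between plates, 25 species of the ERCC spike-in RNA with at least 100 counts had log2 ratios of -0.26 to 0.52 relative to all spike-ins, and 0 passed 2-fold. Among the 11 species with at least 1000 counts the SD of the log2 ratio was 0.103. Among the 1815 genes with at least 1000 counts it was 1.16, and 538 of them (29.6%) passed 2-fold.

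The cultures were checked against markers of the labelled cells and of others. The summed level of 10 neural stem and progenitor markers was 7053 CPM (counts scaled to a common total per culture) in the quiescent and 7038 CPM in the activated culture, with gates at 6544 to 8301 and 6508 to 7152 CPM. The near-equal sums hold members that differ in opposite directions, Fabp7, a fatty acid binding protein, at 4901 and 2234 CPM, Vim at 551 and 3036 CPM and Nes at 56.9 and 657 CPM. Sox2, a transcription factor of neural stem cells, was at 192 and 184 CPM. All 10 microglia, 8 endothelial and 9 pericyte and fibroblast markers were absent from the table or under 10 CPM in both cultures. Of 10 neuron and neuroblast markers 9 were under 10 CPM, and Dcx, a marker of neuroblasts, had no count. Of 6 ependymal markers 5 were under 10 CPM in both cultures, and the 6 summed to 5.81 CPM in the quiescent and 21.3 CPM in the activated culture. Astrocyte markers, 10 genes, summed to 4985 CPM in the quiescent and 1003 CPM in the activated culture. Most of either sum was Aldoc, an aldolase, at 3245 and 778 CPM. Aldh1l1, a folate enzyme used as an astrocyte marker, ran the other way, at 56.9 and 106 CPM, and the connexin gene Gja1 was at 42.4 and 28.8 CPM. The oligodendrocyte lineage list summed to 2084 and 1954 CPM, nearly all of it from the transcription factor genes Olig1 and Olig2. These differed in opposite directions, Olig1 at 1456 and 862 CPM and Olig2 at 487 and 1005 CPM. Pdgfra, the receptor that defines oligodendrocyte precursors, was at 1.87 and 1.98 CPM.

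Activated cells held more RNA in every gate. The ratio of median transcript counts, activated over quiescent, was 1.35, 1.41, 1.44 and 1.37 from the low to the high gate. Per spike-in count it was 1.47, 1.48, 1.59 and 1.56. Side scatter, a measure of inner granularity, ran the other way, with ratios of 0.389, 0.348, 0.309 and 0.359. The share of counts in ribosomal protein genes was 2.62, 2.98, 2.65 and 2.40 times higher. Gates were set for each culture on its own, so that a gate of the activated culture was dimmer than the gate of the same name in the quiescent one, at 0.704 to 0.809 of its median autofluorescence. The part of depth, size and autofluorescence in the gene differences was not tested. With 103 cells from each culture matched on autofluorescence 884 of 998 higher and 652 of 714 lower calls were kept, and with cells thinned to equal depth 917 and 658.

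**Figure D1:**
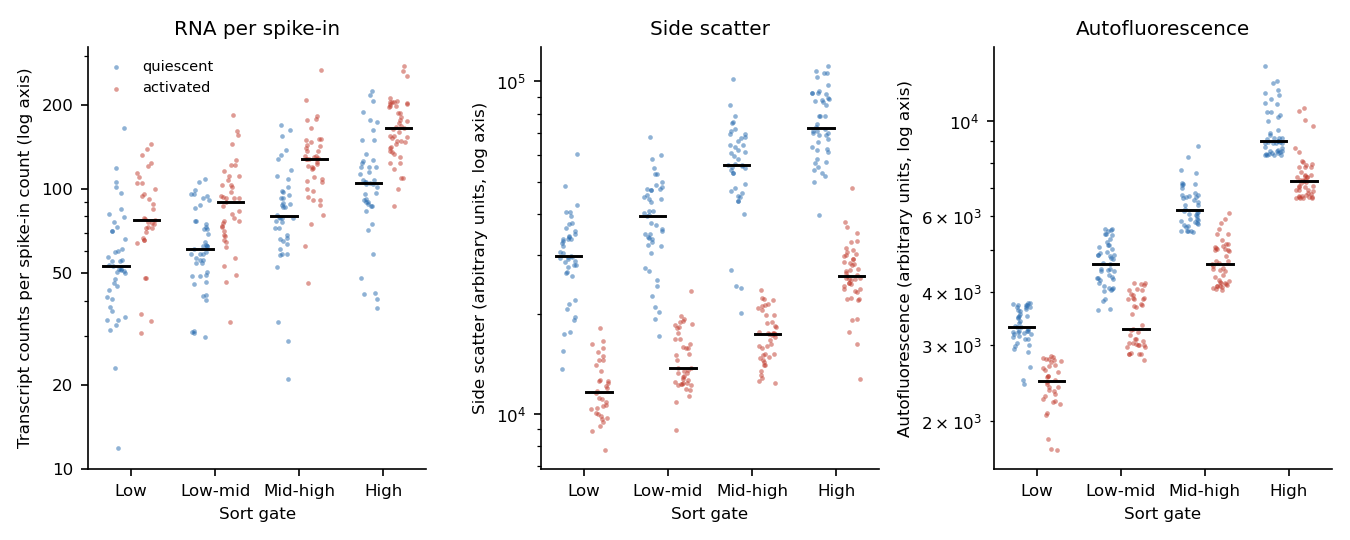
Transcript counts per spike-in count, side scatter and autofluorescence (log axes, scatter and fluorescence in arbitrary units) of every quiescent (blue) and activated (red) cell by sort gate, with medians as black bars. Medians per spike-in are higher in the activated culture in all 4 gates, 77.8 against 53.1 in the low gate and 165 against 105.6 in the high gate, and side scatter is lower.

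A gene was called when its log2 ratio of activated over quiescent, on the log2(CPM + 10) scale, passed 1 in size and the CPM of the 4 gates did not overlap between cultures. Of 11011 genes with at least 20 counts over both cultures, 998 (9.06%) were called higher and 714 (6.48%) lower in activated cells. Over all measured genes the median log2 ratio was 0.07, and 7254 genes (65.9%) lay within 1.5-fold. Past 4-fold were 128 genes higher and 157 lower, and past 16-fold 6 higher and 20 lower. The genes called higher held 20.2% of the activated and 6.46% of the quiescent counts, and those called lower held 4.1% and 16.6%.

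These values are shares of each culture's RNA. Scaled instead to spike-in RNA, which reads transcripts per cell, the median of all genes was 0.48, 2455 genes (22.3%) were called higher and 373 (3.39%) lower, so that 86.8% of calls were towards the activated culture in place of 58.3%. Of the 998 higher calls 997 were kept, and of the 714 lower calls 373. All 714 stayed below the quiescent level per spike-in, which the call fixed in advance. Spike-in scaling raised the activated side 1.55-fold, less than the 2-fold that a call needs. Per spike-in the medians of 11 lists went from below 0 to above 0. The lists below are shares of RNA unless the spike-in scale is named. Lists without a spike-in value can read differently on that scale.

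**Figure D2:**
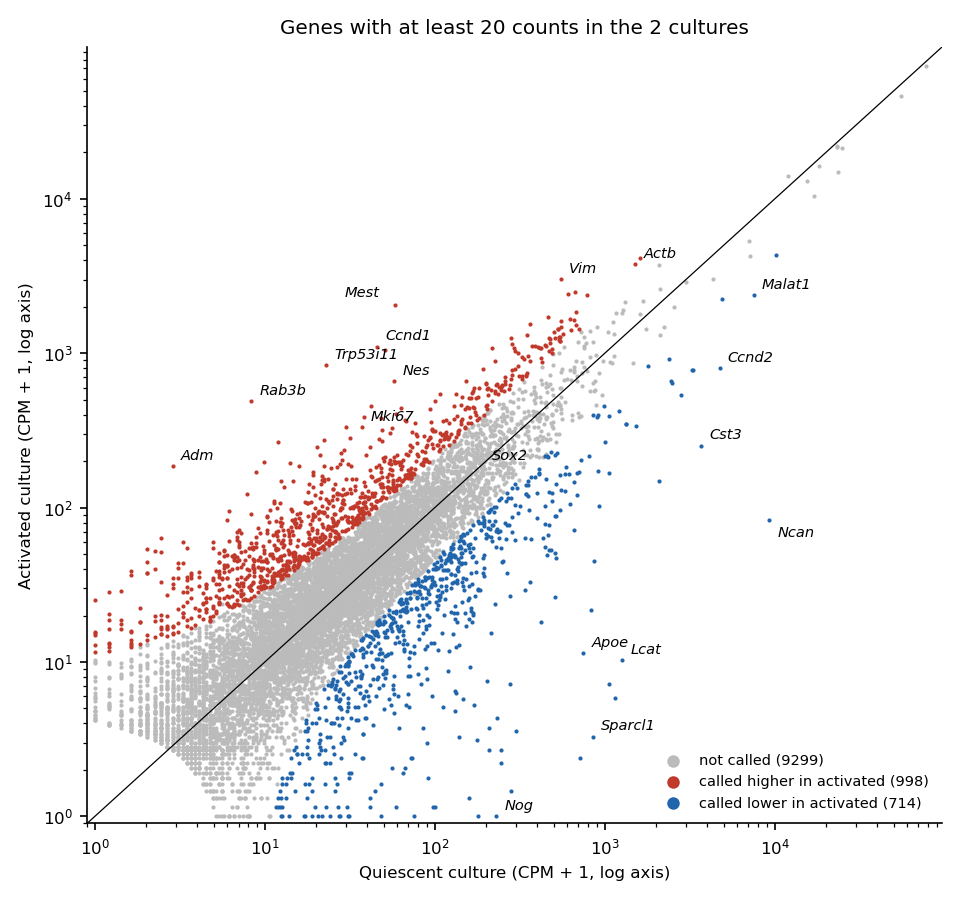
CPM + 1 of the 11011 measured genes in the quiescent (x) and activated (y) culture on log axes, with called genes coloured and equal levels on the diagonal. The 998 higher calls include Mest, Ccnd1 and Vim, the 714 lower calls include Ncan, Lcat and Cst3, and Sox2 lies on the diagonal.

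The gene furthest below in activated cells was Ncan. Ncan, the chondroitin sulfate proteoglycan neurocan (chromosome 8, 70093085 to 70120863, GRCm38), was at 8957, 9853, 9104 and 9092 CPM in the low, low-mid, mid-high and high gates of the quiescent culture. In the activated gates it was at 75.6, 74, 61.1 and 102 CPM. The log2 ratio was -6.65 with a counting interval of -6.76 to -6.54 and the gates of the cultures were far from overlapping. Every quiescent cell held an Ncan transcript, and so did 148 of 164 activated cells. Ptchd2 (log2 ratio -6.29) was at 1081 to 1288 CPM in quiescent gates and at 3.04 to 7.01 CPM in activated ones.

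Sparcl1, a secreted matricellular protein of astrocytes, was at 826, 951, 832 and 817 CPM in quiescent gates and at 1.16, 2.34, 2.24 and 2.66 CPM in activated gates. Serpinf1, a secreted serpin, was lower in each brighter quiescent gate, from 1033 to 469 CPM, and was at 0 to 2.28 CPM in the activated gates. Scrg1 was at 269 to 303 CPM against at most 0.779 CPM. S100b, a calcium-binding protein of astrocytes, was at 232 to 328 CPM against at most 4.18 CPM. Aqp4, the astrocyte water channel, was at 177 to 360 CPM against at most 2.66 CPM. In each of these genes the highest activated gate lies far below the lowest quiescent one.

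Some genes were not seen at all in the activated culture. Nog, the BMP antagonist noggin, had 1105 counts in the quiescent culture, at 266, 296, 240 and 163 CPM by gate, and 0 in the activated culture. Against a floor of 3 counts over the culture it was at least 502-fold lower. Inpp5j, an inositol phosphatase, had 860 counts against 0 and was at least 391-fold lower, and P2rx1, an ATP-gated channel, was at least 162-fold lower. Among genes with at least 100 counts 9 had none in the activated culture, and 1, Fam181a, had 160 in the activated and none in the quiescent culture (at least 39.1-fold higher). P2rx1, Fam181a and the 9 were picked out after their values were seen.

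On the activated side the leading gene was Mest, an imprinted gene of the hydrolase fold family (chromosome 6, 30733506 to 30748466). It was at 2047, 2355, 2138 and 1862 CPM in activated gates and at 115, 43.7, 51.1 and 41.2 CPM in quiescent gates, a log2 ratio of 4.94 (4.80 to 5.10). Rab3b, a GTPase of vesicle release, was at 463, 383, 455 and 567 CPM against 3.57, 1.86, 11.1 and 9.86 CPM. Adm, the peptide hormone adrenomedullin, was at 119 to 222 CPM against 0 to 3.72 CPM, and Apln, the peptide apelin, at 148 to 179 CPM against 4.76 to 11.1 CPM. Pou3f1, a POU transcription factor of neural progenitors, was at 243 to 305 CPM against 9.30 to 15.5 CPM. Both peptide genes and Pou3f1 were already above the quiescent level in the 24 h exit culture, at 13.5, 99.6 and 143 CPM, which lay on the quiescent plate.

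**Figure D3:**
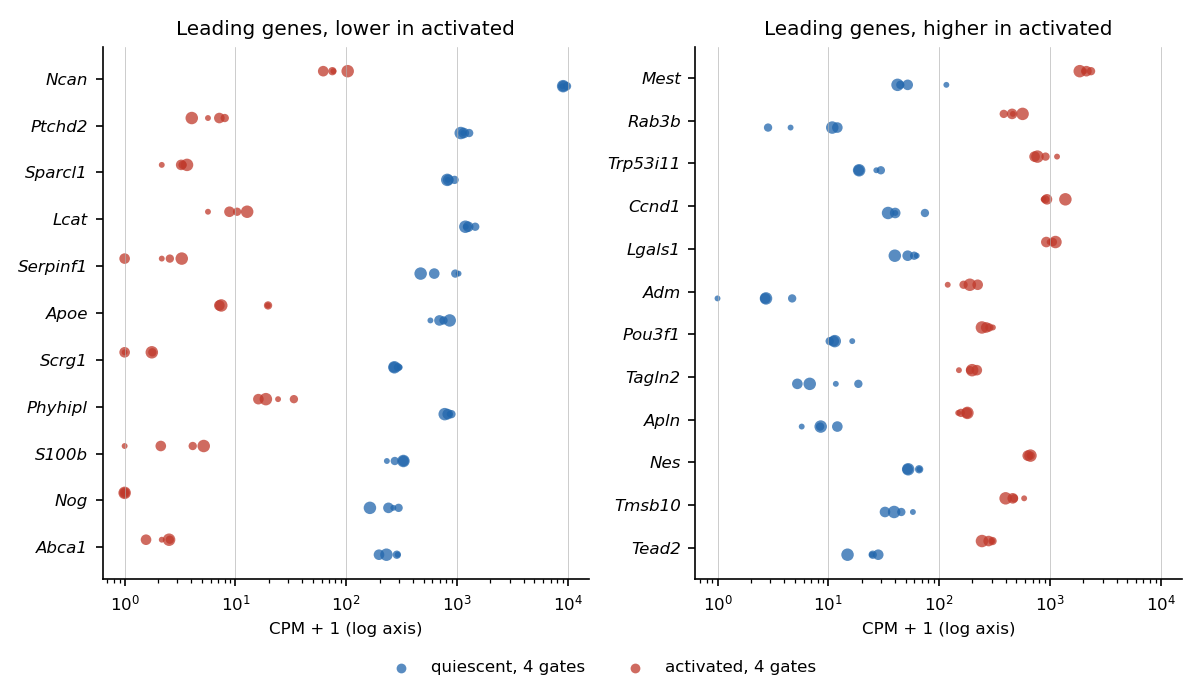
CPM + 1 (log axis) of the leading genes in each direction, 1 point per gate, larger points for brighter gates, with the quiescent culture in blue and the activated culture in red. In each gene shown the 4 gates of a culture lie together and apart from those of the other, such as Ncan at 8957 to 9853 against 61.1 to 102 CPM.

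Genes of division made up the lists with the largest share of calls. Of 22 measured mitotic kinesin and spindle assembly genes 20 were called higher (median log2 ratio 2.04), of 21 kinetochore and spindle checkpoint genes 19 (1.86), and of 29 origin licensing and replication fork genes 24 (1.53). None was called lower, where all genes gave 9.06% higher and 6.48% lower. Condensin and cohesin genes were called higher in 8 of 16 (1.13), DNA repair genes in 10 of 18 (1.04) and genes of purine and pyrimidine synthesis in 17 of 23 (1.29). Plk1, a mitotic kinase, was at 223, 143, 198 and 187 CPM in activated gates against 7.13, 3.72, 25.6 and 18.6 CPM. Cenpe, a kinetochore motor, was at 123 to 158 CPM against 2.79 to 19.8 CPM. Mcm7, a subunit of the replicative helicase, was at 238, 245, 227 and 152 CPM against 53.5, 20.5, 31.5 and 16.2 CPM, and Rrm2, the ribonucleotide reductase subunit of S phase, at 253 to 315 CPM against 18.6 to 54.7 CPM. The helicase genes were highest in the low quiescent gate, whereas Plk1 was highest in the mid-high one. By the authors' phases the low quiescent gate held 6 S and 0 G2/M cells, and the mid-high one 1 and 2.

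The D-type cyclins, which bind Cdk4 and Cdk6 in G1, went in opposite directions. Ccnd1 was at 878, 908, 941 and 1381 CPM in activated gates and at 39.2, 73.5, 39.2 and 33.6 CPM in quiescent ones (log2 ratio 4.34). Ccnd2 was at 573, 583, 716 and 1045 CPM in activated and at 4752, 4820.1, 5180.1 and 4365 CPM in quiescent gates (log2 ratio -2.54). Both cyclins were highest in the high gate of the activated culture, and on the spike-in scale Ccnd2 was still at 0.263 times its quiescent level. Of 16 measured genes of G1 cyclins, E2F and retinoblastoma proteins 8 were called higher, among them Cdk4 at 1.66 and E2f8, a repressor of S-phase genes, at 1.51, and 2 lower, Ccnd2 and Rb1, the retinoblastoma gene, at -1.20. Inhibitors of cyclin-dependent kinases and p53 targets gave 0 higher and 2 lower calls of 20 (median 0.20), where all genes gave 9.06% and 6.48%. Cdkn1b, the inhibitor p27, was at 105 and 118 CPM with a log2 ratio of 0.15 (0.01 to 0.31), and Cdkn1c, the inhibitor p57, had 2 counts in the quiescent and 20 in the activated culture. Cdkn1a, the inhibitor p21, named after its values were seen, was at 255 and 282 CPM. The 2 lower genes were the stress genes Gadd45b at -1.44 and Gadd45g at -1.05.

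Upstream of the start of these genes, sequence motifs known from division genes were counted in 250 bases before to 50 bases after the RefSeq start on GRCm38.p6, on both strands, for the 8336 measured genes with such a window. The cell cycle homology region TTTGAA, bound by repressor complexes in resting cells, was in 27 of 37 kinetochore, checkpoint, kinesin and spindle genes (73%) against 11.1% of all measured genes, 18.8% of those called higher and 6.72% of those called lower. CCAAT boxes were in 70.3% of the same 37 and in 39.6% of all measured genes. The E2F sites TTTGGCGC or TTTCCCGC were in 10 of 24 licensing and fork genes (41.7%) against 3.39%. A match is a description of the letters, not a bound site. The pair of spindle and kinetochore genes with the largest log2 ratios and a TTTGAA match within 150 bases before the start, Ckap2 (2.34) and Cenpw (2.25), and the pair of licensing genes with an E2F match there, Mcm6 (2.45) and Mcm5 (2.06), are shown 5′ to 3′ over these 150 bases. Capitals mark TTTGAA or its complement and CCAAT boxes in the first pair, where the 2 motifs overlap in Cenpw, and E2F matches in the second. The stretches are chr8:22185820-22185969, chr10:30200541-30200690, chr1:128359706-128359855 (each on the minus strand) and chr8:75109359-75109508 (plus strand).
Ckap2: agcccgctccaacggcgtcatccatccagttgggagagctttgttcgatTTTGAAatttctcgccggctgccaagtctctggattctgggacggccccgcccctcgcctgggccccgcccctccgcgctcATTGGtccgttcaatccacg
Cenpw: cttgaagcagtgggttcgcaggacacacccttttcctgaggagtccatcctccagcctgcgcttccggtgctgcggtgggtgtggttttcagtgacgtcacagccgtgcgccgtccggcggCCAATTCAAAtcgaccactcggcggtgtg
Mcm6: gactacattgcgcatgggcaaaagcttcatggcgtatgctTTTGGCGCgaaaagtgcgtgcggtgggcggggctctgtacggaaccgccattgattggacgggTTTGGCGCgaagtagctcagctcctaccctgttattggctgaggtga
Mcm5: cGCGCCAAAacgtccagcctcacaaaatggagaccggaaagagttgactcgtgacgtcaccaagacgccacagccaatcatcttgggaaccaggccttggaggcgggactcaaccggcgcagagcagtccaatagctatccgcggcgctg

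In 6 lists of biosynthesis all calls were higher ones, with most members of the last 3 not called. Genes of translation initiation and elongation were called higher in 11 of 23 (median log2 ratio 0.90), splicing factors and hnRNPs in 16 of 28 (1.13), and genes of the nuclear pore and nuclear transport in 13 of 26 (1.01), each with 0 lower calls. Eif4a1, the RNA helicase of initiation, was at 684, 645, 582 and 550 CPM in activated gates and at 206, 194, 169 and 136 CPM in quiescent gates. Ran, the GTPase of nuclear transport, was at 771 to 1145 CPM against 209 to 261 CPM, and Hnrnpab, an RNA-binding protein, at 1129.6 to 1601 CPM against 287 to 445 CPM. In all 3 genes the low gate was the highest of either culture. Mitochondrial import and folding genes were called higher in 6 of 24 (0.70), led by the chaperonin Hspd1 at 1.49, mitochondrial ribosome genes in 4 of 27 (0.63) and aminoacyl-tRNA synthetases in 4 of 21 (0.69), led by Vars at 1.84. Each of these 3 lists had 0 lower calls, and their medians lay above that of all genes although most members stayed under 2-fold. Per spike-in RNA 20 of 24, 16 of 27 and 16 of 21 of them were called higher, where all genes gave 22.3%.

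Amino acid metabolism was split, where all genes gave 9.06% higher and 6.48% lower calls. Psat1, an enzyme of serine synthesis, was at 521 to 643 CPM in activated against 89.4 to 126 CPM in quiescent gates, and Shmt1 and Mthfd1l, enzymes of the folate cycle, had log2 ratios of 1.61 and 1.89. Of 16 genes of serine, glycine and one-carbon metabolism 7 were called higher and 1 lower, Cbs, the first enzyme of transsulfuration, at -1.62. Of 11 genes of glutamate, glutamine and proline metabolism 2 were called higher, the asparagine synthetase Asns at 1.24 and the proline enzyme Aldh18a1 at 1.15. Another 3 were called lower: Glul, glutamine synthetase, at -1.99, Glud1, glutamate dehydrogenase, at -1.87 and the transaminase Gpt2 at -1.63. Glul was at 626 to 787 CPM in quiescent and at 149.7 to 184 CPM in activated gates. Transporters of amino acids and glucose gave 4 higher and 5 lower calls of 16, with Slc7a1, a carrier of cationic amino acids, at 1.16 and the creatine and taurine carriers Slc6a8 and Slc6a6 at -3.19 and -2.64. Per spike-in the transporters gave 6 higher and 4 lower calls, where all genes gave 22.3% and 3.39%.

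Among BMP ligands, receptors and SMAD genes 12 of 25 were called lower and 0 higher (median log2 ratio -0.97), against 6.48% lower over all genes. On the spike-in scale 9 of 25 were lower and 1 higher. The inhibitors of the pathway led: besides Nog, the inhibitory SMAD genes Smad6 and Smad7 were at 78.9 to 124 and 74.3 to 115 CPM in quiescent gates and at most 0.380 and 2.33 CPM in activated gates. Id1, an inhibitor of basic helix-loop-helix factors, was at 411, 395, 316 and 285 CPM in quiescent and at 36.1, 24.2, 26.3 and 29.2 CPM in activated gates. Id3 was at 791 to 916 CPM against 358 to 557 CPM, so that it remained abundant in activated cells. At 24 h, on the quiescent plate, Smad6, Smad7 and Id1 were at 4.92, 6.89 and 54.8 CPM. Smad1, Smad4 and Smad5, the signal-carrying SMAD genes, named after their values were seen, had log2 ratios of 0.18, -0.10 and 0.72 and were not called.

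Receptors and feedback genes of EGF and FGF signalling did not move as a group, with 4 higher and 2 lower calls of 26 (median -0.11, and 0.32 per spike-in). All genes gave 9.06% higher and 6.48% lower, against which the counts here are to be read. Egfr, the EGF receptor, was at 57, 65.5, 48.2 and 73.3 CPM in activated gates and at 11.9, 13, 17.9 and 22 CPM in quiescent gates. Phlda1 and Il17rd, a feedback inhibitor of FGF signalling, had log2 ratios of 1.56 and 1.15. Spry1, an inhibitor of receptor tyrosine kinases, was at 148 to 170 CPM against 329 to 476 CPM, and Tgfa, a ligand of the EGF receptor, at -1.03. Immediate early genes gave 2 calls each way of 15, with Egr1 at 1.55 and Ier5 at 1.27 against Maff at -1.48 and Fos at -1.46. Insulin and IGF genes gave 1 higher call of 18, the receptor Igf1r at 1.30, and 5 lower, led by the binding protein Igfbp4 (599 to 972 CPM in activated against 3055 to 3519 CPM in quiescent gates).

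Other signalling lists held calls in both directions, to be read against 9.06% higher and 6.48% lower over all genes. In the Notch list 5 of 17 were called lower and 0 higher: the ligands Dner and Jag1 at -3.23 and -2.57, the target genes Hey1 and Hes5 at -1.98 and -1.82, and Notch3. The list's median was 0.03 and changed sign with the scaling. Hes5 was at 76.2, 84.7, 84.5 and 42.4 CPM in quiescent and at 23.3, 16.4, 8.41 and 8.75 CPM in activated gates. These levels rest on few cells. Only 78 of 174 quiescent and 21 of 164 activated cells held Hes5, and the 5 highest cells held 39.8% and 69.6% of its counts. In the Wnt list 3 of 24 were called higher, the ligands Wnt7a at 2.50, Wnt5a at 1.71 and Wnt7b at 1.05, and 5 lower, among them the secreted inhibitors Wif1 at -4.02 and Frzb at -1.70. Wnt7a was at 41.9 to 74.1 CPM in activated gates against at most 2.55 CPM. Per spike-in the Wnt list gave 7 higher and 3 lower calls, where all genes gave 22.3% and 3.39%. In the Hedgehog and cilium list Gas1 and Cdon, coreceptors of Hedgehog ligands, were called higher and Boc, another coreceptor, lower, 2 and 1 of 16, near the shares over all genes. Guidance genes (Eph, ephrin, semaphorin, plexin, slit and robo) gave 2 higher and 7 lower calls of 25, with Sema5a at 1.51 and Efnb2 at -1.48. Per spike-in the guidance list gave 2 higher and 3 lower.

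The cytoskeleton differed in kind as well as level. Of 35 Hippo and SRF target and actin-binding genes 17 were called higher and 2 lower (median 1.06), against 9.06% and 6.48% over all genes. Lgals1, the secreted galectin 1, was at 995, 1066, 929 and 1123 CPM in activated gates and at 61.8, 58.6, 51.1 and 38.9 CPM in quiescent gates. Tmsb10, thymosin beta 10, was at 398 to 585 CPM against 31.5 to 57.1 CPM, and Tagln2, an actin-binding protein of the transgelin family, at 150 to 218 CPM against 4.26 to 17.7 CPM. The abundant actins Actb and Actg1 were also called higher, at 1.32 and 1.36, from 1383 to 1846 CPM in quiescent gates to 3599 to 4592 CPM in activated gates for both genes. Axl, a receptor kinase, and Ezr, the membrane linker ezrin, were called lower.

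Among 8 measured intermediate filament and lamin genes 3 were called higher and 2 lower, against 9.06% and 6.48% over all genes. Nes, nestin, was at 661, 671, 631 and 668 CPM in activated gates and at 65.4, 65.1, 51.1 and 51.6 CPM in quiescent gates, and Vim, vimentin, at 2941 to 3097 CPM against 473 to 603 CPM. Gfap, the filament of astrocytes, was at 38, 75.3, 106 and 65.0 CPM in quiescent gates and at most 1.68 CPM in activated gates. Of 21 tubulin and microtubule genes 7 were called higher (Stmn1, a destabiliser of microtubules, at 2.66 and the tubulin Tubb5 at 2.13) and 2 lower, Tubb3 at -1.31 and Mapt at -1.03. Map1b was called at 2.72, but 87.8% of its quiescent counts came from 1 cell of the low-mid gate. That gate was at 47.7 CPM, against 0.851 to 2.38 CPM in the others.

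Matrix and adhesion genes were called in both directions, and most members of each list were not called. Over all genes 9.06% were called higher and 6.48% lower. None of 27 cadherins, adhesion molecules and junction genes was called higher and 11 were called lower (median -0.74). On the spike-in scale 8 were lower and 1 higher. Nrxn2, a neurexin, was at 457, 546, 530 and 513 CPM in quiescent and at 78, 83.4, 94.1 and 87.4 CPM in activated gates, and the adhesion genes Chl1 and Cadm2 were at -2.27 and -1.92. Proteases and their inhibitors gave 1 higher and 9 lower calls of 21. Cst3, the secreted protease inhibitor cystatin C, was at 3718, 4197, 3734 and 3262 CPM in quiescent and at 166, 257, 229.9 and 291 CPM in activated gates. Of the tissue inhibitors of metalloproteases Timp3 was lower at -3.12 and Timp2 higher at 1.93. Proteoglycan and matricellular genes gave 3 higher and 5 lower calls of 20, with Tnc, tenascin C, higher at 1.34 and the brain proteoglycan Bcan lower at -2.34.

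The laminin beta chains went in opposite directions. Lamb1 was at 129, 164, 168 and 167 CPM in activated gates and at 26.2, 20.5, 17 and 13.9 CPM in quiescent gates. Lamb2 was at 17.5, 14.8, 18.5 and 22 CPM in activated and at 84.4, 90.2, 71.5 and 76 CPM in quiescent gates. The list of collagens, laminins and integrins held 3 higher calls and 5 lower of 25, against 9.06% and 6.48% over all genes. Per spike-in it held 6 higher and 2 lower, against 22.3% and 3.39%, so its lean to lower calls did not hold there. Among the 5 lower as shares of RNA were the integrin Itgav at -1.75 and the collagen Col11a1 at -2.27.

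As shares of RNA, transport and glycogen genes were mostly called lower where they were called. All genes gave 9.06% higher and 6.48% lower, or 22.3% and 3.39% per spike-in. Slc1a2, the main glutamate transporter of astrocytes, was at 456, 460.1, 402 and 394 CPM in quiescent gates and at 15.1, 16.4, 10.1 and 22.8 CPM in activated gates, and 4 of 13 genes of glutamate and GABA uptake and receptors were called lower. Per spike-in the glutamate and GABA list gave 1 higher and 3 lower calls. Channels, pumps and gap junction genes gave 3 higher and 7 lower calls of 21 (median -0.49). On the spike-in scale that list gave 6 higher and 5 lower (median 0.04), so its lean to lower calls did not hold there. Among the 7 lower was Atp1b2, a beta subunit of the sodium pump, at 1921 to 2304 CPM against 104 to 166 CPM. In glycogen metabolism 6 of 13 were called lower and 0 higher, and 3 of 13 were lower per spike-in. The phosphorylases Pygm and Pygb, which break glycogen down, were at -3.68 and -2.60, and Ppp1r3c, a subunit that promotes its synthesis, was at -2.43. Enzymes of both directions were thus among the 6.

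Lipid genes were called in both directions, where all genes gave 9.06% higher and 6.48% lower. Lcat, which esterifies cholesterol on lipoproteins, was at 1200.4, 1461, 1262 and 1190.0 CPM in quiescent and at 4.65, 9.35, 7.84 and 11.8 CPM in activated gates. Apoe, the carrier itself, was at 575, 755, 694 and 859 CPM against 18.6, 18.7, 6.16 and 6.45 CPM, and Abca1, which loads it, at 197 to 290 CPM against at most 1.56 CPM. In fatty acid synthesis Acly and Elovl6 were called higher at 1.49 and 1.56 and Elovl2, which extends polyunsaturated chains, lower at -1.95. These 2 and 1 calls of 16 were near the shares over all genes. Retinoid, aldehyde and steroid genes gave 1 higher and 4 lower calls of 16, from Cyp51, a sterol demethylase, at 1.23 to Aldh1a1, which makes retinoic acid, at -3.95. Sphingolipid genes gave 1 higher and 5 lower calls of 18, with the saposin precursor Psap at -1.5, but 3 higher and 0 lower per spike-in.

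Antioxidant enzymes were called in both directions, 5 higher and 3 lower of 29, with Gsr, glutathione reductase, at 1.35 and Gstm1, a glutathione transferase, at -1.91. Metallothionein and iron genes gave 1 higher and 2 lower calls of 13. The counts of both lists are to be read against 9.06% higher and 6.48% lower over all genes. For both lists, and for fatty acid synthesis, the median lay between 0.02 and 0.09 and was below 0 with median-of-ratios scaling.

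Calls among lysosome and autophagy genes were mostly lower ones, though most members were not called, and on the spike-in scale fewer were called lower. Cathepsins and lysosomal hydrolases gave 9 lower calls and 1 higher of 31 (median -0.61), lysosome membrane and V-ATPase genes 4 lower of 30 (-0.33), and autophagy genes 6 lower of 30 (-0.60), where all genes gave 6.48% lower. Per spike-in RNA, where all genes gave 3.39% lower, the lower calls were 3, 1 and 1, the last 2 near that share, and the medians -0.17, 0.06 and -0.07. Ctsd, cathepsin D, was at 257, 274, 259.9 and 286 CPM in quiescent and at 40.7, 68.6, 66.1 and 98.8 CPM in activated gates, which per spike-in was 0.435 times the quiescent level. Lamp1, a membrane protein of lysosomes, was at 851, 959.9, 905 and 905 CPM against 341, 396, 363 and 440.3 CPM, or 0.678 times per spike-in. In both genes the high gate was the highest of the activated culture and the low gate the lowest, and no activated gate reached a quiescent one. Lgmn, the lysosomal protease legumain, was at -2.42, and Wipi1, an autophagy protein, at -2.22. Ctsc, cathepsin C, was the 1 higher call at 1.04.

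The core TCACGTG, to which the lysosomal regulator TFEB binds, was in the promoter windows of 11 of 49 genes of the lysosome lists (22.4%) against 6.49% of all measured genes and 5.41% of those called lower. Over the 150 bases before the start Ctsd (chr7:142387828-142387977, minus strand) and Lamp1 (chr8:13159011-13159160, plus strand) carry a match there and read as follows. Capitals mark TCACGTG or its complement, which overlap in Ctsd.
Ctsd: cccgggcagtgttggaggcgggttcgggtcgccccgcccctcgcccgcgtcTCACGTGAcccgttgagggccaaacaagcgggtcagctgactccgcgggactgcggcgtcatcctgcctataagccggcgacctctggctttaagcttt
Lamp1: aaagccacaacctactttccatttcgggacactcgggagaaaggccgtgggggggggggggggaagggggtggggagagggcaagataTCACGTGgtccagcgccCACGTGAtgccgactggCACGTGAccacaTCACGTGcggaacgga

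Transcription factors of the neural lineage gave 9 higher and 4 lower calls of 38 (median 0.08), where all genes gave 9.06% and 6.48%. Besides Pou3f1, the SoxC gene Sox11 was at 355, 262, 282 and 182 CPM in activated gates and at 46.4, 36.3, 50.2 and 33.1 CPM in quiescent gates, and Sox3 was at 2.17. Sox5, Sox8 and Hopx were lower at -1.88, -1.16 and -1.25, and Sox2 was at -0.06 (-0.18 to 0.06). Chromatin genes gave 5 higher and 0 lower calls of 24, led by the Polycomb methyltransferase Ezh2 at 1.90 and the maintenance methyltransferase Dnmt1 at 1.67. Circadian and PAR-bZIP genes gave 0 higher and 3 lower of 17, led by Bhlhe41 at -2.47. Imprinted genes gave 2 higher, Mest and Peg10, and 1 lower, Impact, of 14. Long non-coding RNAs gave 3 higher, among them Snhg5 at 1.47, and 2 lower of 15. Malat1, an abundant nuclear RNA, was at 6369.8 to 8254 CPM in quiescent and at 1651 to 3042 CPM in activated gates. Complement, MHC and interferon genes gave 1 call each way of 13, near the shares over all genes, the membrane protein Ifitm3 at 1.80 and the peptide loader Tapbp at -1.19.

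**Figure D4:**
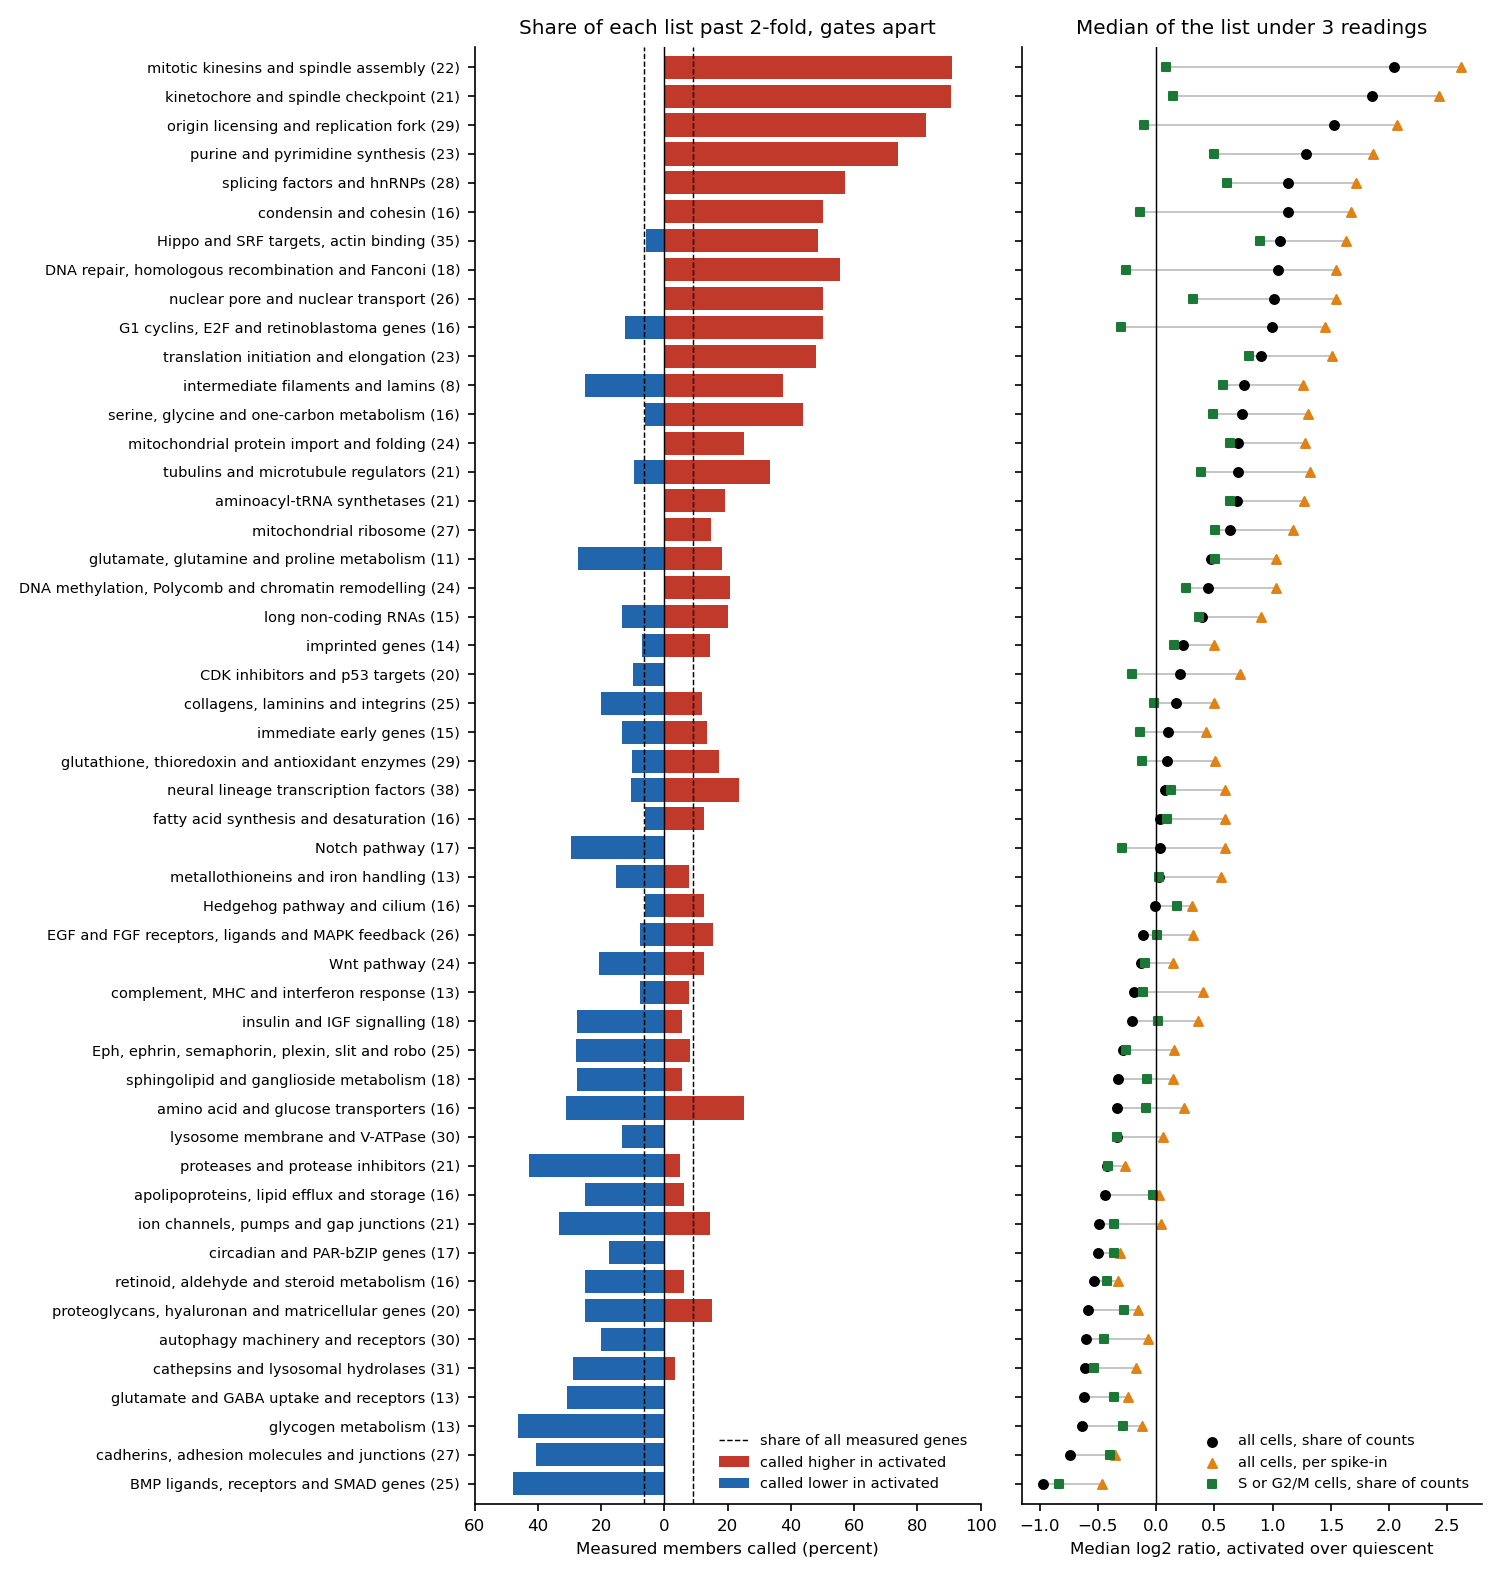
Left, percent of the measured members of each of 50 gene lists (number in brackets) called higher (red) or lower (blue) in activated cells, with the share of all measured genes dashed. Right, the median log2 ratio of each list over all cells (black circles), per spike-in (orange triangles) and among S or G2/M cells (green squares): the mitotic kinesin list lies at 2.04, 2.62 and 0.08.

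The genes were also read in single cells. These are the cells from which the leading genes were chosen, so the values describe spread over cells and are no further support. With each cell thinned to 15110 counts, which left out 7 activated and 27 quiescent cells, 105 of 6731 genes gave an area under the curve of at least 0.9 and 85 of at most 0.1, where 1 means that every activated cell ranks above every quiescent cell. It was 0.00 for Lcat and Ncan and 0.999 for Mest. After thinning a Ccnd1 transcript was seen in 100% of activated and 30.6% of quiescent cells, and Nes in 100% and 49.7%. Without thinning 71 and 111 of the 174 quiescent cells held them. Division genes separated cells less sharply, Mki67 at 0.888 and Plk1 at 0.810, with Plk1 seen in 66.2% of activated and 4.76% of quiescent cells.

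Some division transcripts of the quiescent culture came from few of its cells. The authors' table puts 146 of the 174 cells in G0, 12 in G1, 11 in S and 5 in G2/M, against 1, 23, 61 and 79 of the activated cells. Only 23 quiescent cells held any Mki67 transcript, and 5 of them held 74.2% of its counts. For Ccna2 and Plk1 the 5 highest cells held 73.8% and 91.7%. Others were more widely spread: Smc4, a condensin subunit, was seen in 90 quiescent cells and Mcm7 in 51, with 31.6% and 34.1% of their counts in the 5 highest cells. Over the G0 cells Mki67 was at 3.19 CPM, and over the 16 S and G2/M cells at 317 CPM, near the 393 CPM of the 140 activated cells in these phases. The phases were set by genes of this kind, so these levels describe the classes.

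Those 16 cells allow a comparison among S and G2/M cells, chosen after the data were seen, with 480489 counts on the quiescent side. The 2 phases were pooled and not matched. Their mix differed, with 11 S and 5 G2/M cells in the quiescent and 61 and 79 in the activated culture. Ncan was at 6284 CPM in them and at 75.2 CPM in activated S and G2/M cells, Lcat at 752 and 8.07 CPM, and Nog at 263 and 0 CPM. Ccnd1 was at 64.5 and 960 CPM, Nes at 117 and 620 CPM, Mest at 87.5 and 2102 CPM and Vim at 492 and 2948 CPM. Ccnd2 was at 5079 and 702 CPM. In these genes the quiescent cells of S and G2/M phase lay nearer to quiescent G0 cells than to activated cells of these 2 phases. Of 10055 genes measured there 703 (6.99%) were past 2-fold higher and 580 (5.77%) lower. Of the 998 genes called higher over all cells 476 (47.7%) were past 2-fold, and of the 643 measured genes called lower 468 (72.8%).

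The lists differed in how far they moved in this comparison. The medians of the mitotic kinesin, kinetochore and licensing lists were 0.08, 0.14 and -0.10 in place of 2.04, 1.86 and 1.53, and Top2a, the topoisomerase of dividing cells, was at 777 CPM in the quiescent and 517 CPM in the activated cells. Cells of both cultures were picked by phases set with genes of this kind. Medians near 0 in these lists were thus partly fixed by that choice, and their contrast with other lists carries this limit. The part of the unlike mix of S and G2/M cells was not tested. Translation factors (0.80 in place of 0.90), aminoacyl-tRNA synthetases (0.64 and 0.69), actin-binding genes (0.89 and 1.06), BMP genes (-0.83 and -0.97) and cathepsins and hydrolases (-0.53 and -0.61) were near their values over all cells. Others lay between 0 and their value over all cells: nuclear pore and transport (0.32 in place of 1.01), splicing (0.61 and 1.13), purine and pyrimidine synthesis (0.49 and 1.29), tubulins (0.38 and 0.70), adhesion (-0.40 and -0.74) and apolipoproteins (-0.02 and -0.44). The G1 list was at -0.30 in place of 0.99.

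**Figure D5:**
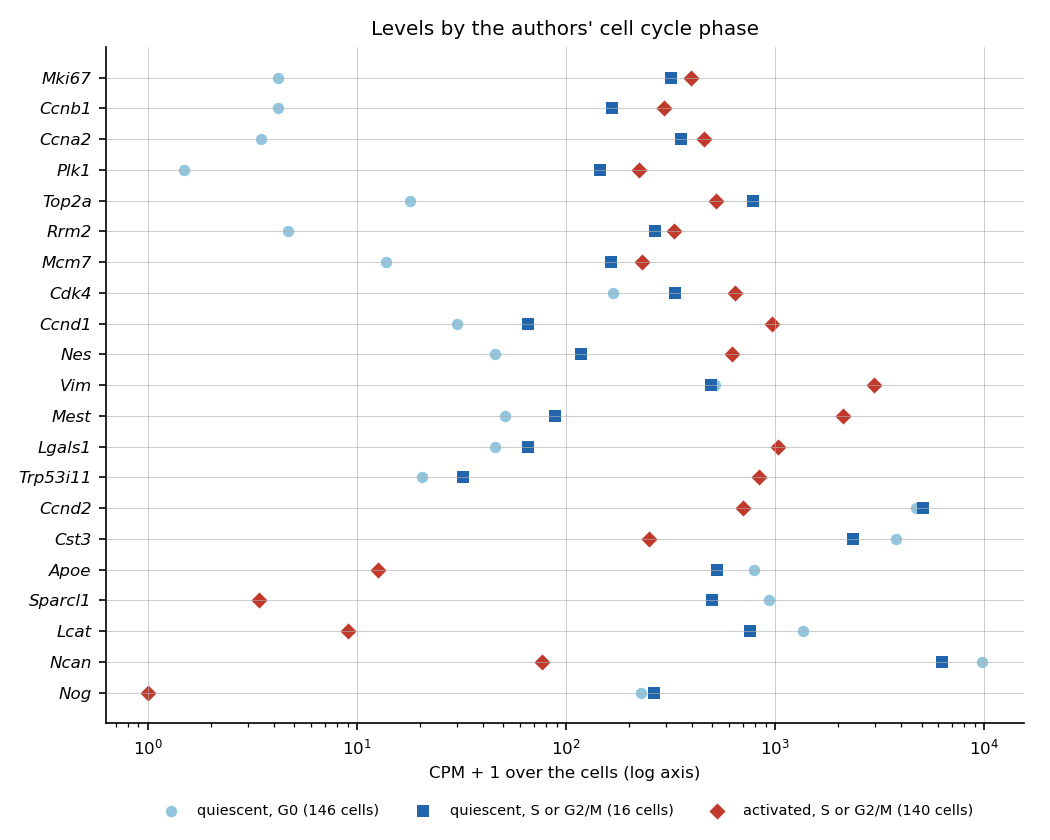
CPM + 1 (log axis) of 21 named genes over quiescent cells in G0 (light blue circles), quiescent cells in S or G2/M (dark blue squares) and activated cells in S or G2/M (red diamonds), by the authors' phases. Mki67 lies at 3.19, 317 and 393 CPM, whereas Ccnd1 lies at 29, 64.5 and 960 CPM and Ncan at 9768, 6284 and 75.2 CPM.

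The exit cultures are given beside the 2 states as values, with no test. Ncan was at 3613 CPM at 24 h and 709.7 CPM at 48 h. Ptchd2 and Nog were at 94.6 and 8.21 CPM at 24 h. Ccnd1 was at 235 and 1037 CPM and Mki67 at 35.9 and 359 CPM. Vim was at 594 and 844 CPM and Lgals1 at 101 and 239 CPM, against 3036 and 1042 CPM in the activated culture, which shared the 48 h plate. Igfbp4 was at 4445 and 3926 CPM, above the quiescent and the activated level.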

How the data were processed

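Per the labels' protocols, single cells were sorted into 384-well plates and profiled by SORT-seq and CEL-Seq2, methods that read 3′ ends. The plate tables hold rows of ERCC spike-in RNA, from which spike-in scaling was computed. The tools are Seurat 4.1.1, R 4.2.0 and BWA 0.7.15, per the submitters' processing notes, which name mm10 and hg19 as builds. The authors deposited plate tables and a merged table of expected counts, corrected for molecules that share an identifier. A further table by the authors holds, for each cell, culture, gate and phase, a total count, phase scores (each a score without unit), percent of ribosomal protein and of mitochondrial counts, and fluorescence and scatter intensity, per the file headers. A plate barcode table names the wells. Of the wells 128 without a condition were left out.

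Counts were summed per culture and gate and divided by the sum's total (CPM). Log2 ratios used 10 CPM as pseudocount and genes with at least 20 counts, with exact conditional binomial 95% intervals on the culture sums, which cover counting error only. Calls needed 2-fold and gates that do not overlap. Cells and gates are no replicates, so no test was made. Named genes were the 20 largest ratios in each direction among called genes with at least 200 counts, up to 3 called members of each list in each direction, 10 genes in each direction that separated cells best, and 17 fixed genes, without predicted, mitochondrial and ribosomal protein genes among the largest ratios. Members and the 50 lists were chosen with earlier results of these data known. TMM and median-of-ratios factors came from edgeR 4.0.16 and DESeq2 1.42.0 under R 4.3.3, other work from Python 3.11.15 with scipy 1.17.1, pandas 2.3.3, numpy 2.4.6 and, for plots, matplotlib 3.10.9. The call was checked on simulated data. Promoter sequences and gene positions are RefSeq's on GRCm38.p6, the same assembly as mm10, and 226 of 227 named genes matched by symbol. Members of families of near-identical genes, such as actins and tubulins, share 3′ sequence in part, and their counts are less certain. Some genes that the naming rule selects are not reported here.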

Additional observations from a re-analysis of the deposited data

How the results depend on the processing

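Against 998 higher and 714 lower calls, a pseudocount of 1 CPM gave 1710 and 1293, one of 50 CPM 324 and 256, and spike-in scaling 2455 and 373. Spike-in scaling moved the median of all genes from 0.07 to 0.48 and median-of-ratios scaling to -0.0032. Cells of S or G2/M phase only, an alternative added after seeing the data and with phases set by division genes, gave 660 and 478. There the medians of origin licensing, condensin and DNA repair genes were -0.10, -0.14 and -0.26, and Top2a (-0.58), Smc2 (-0.13), Exo1 (-0.0082), Hells (-0.21), E2f8 (-0.086), Tk1 (-9.0e-04), Mapt (0.53) and Miat (0.026) had the opposite sign to all cells. In the other 15 settings, 0 of 224 called named genes changed sign. For other pseudocounts, count filters, scalings and gates left out, the call rule fixed this outcome in advance. Thinning, means per cell and matching on autofluorescence drew on the same cells. Leaving out 1 gate gave 968 to 1058 higher and 693 to 808 lower calls. The alternative of non-cycling cells only was not run, since 1 activated cell is in G0 and 12 quiescent cells are in G1. No paired analysis was possible because each state is 1 culture and gates of 1 culture are not replicates. Genes under 20 counts were not read, and 1 culture per state leaves the spread between cultures unknown.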

Other observations

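Some gene relatives were called in opposite directions. Of gene name stems 78 held at least 1 called gene each way, among them stems such as Slc and Tmem that are not single families. Besides Ccnd1 and Ccnd2, Lamb1 and Lamb2, and Timp2 and Timp3, the galectin genes Lgals1 and Lgals8 had log2 ratios of 4.13 and -2.18, the membrane recycling genes Ehd4 and Ehd3 2.20 and -2.36, the neuron-specific gene family members Nsg1 and Nsg2 1.99 and -2.59, and the fatty acid elongases Elovl6 and Elovl2 1.56 and -1.95. The Sox genes were split as 4 higher and 2 lower, with Sox11 at 2.36 and Sox5 at -1.88. These pairs were picked out after their values were seen, and shared stems do not make all members relatives.

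For some genes the ratio between cultures differed by autofluorescence gate. Of 4398 genes with at least 200 counts and 50 CPM in some gate, 165 differed by at least 1 on the log2 scale between the high and the low gate, and 6 of these had opposite signs in the 2 gates with both ratios at least 0.5 in size. Efnb2, an ephrin, had ratios of -2.48, -1.99, -1.88 and -0.52 from the low to the high gate, and its receptor gene Ephb2 -1.91, -0.81, -0.27 and -0.0034. Rras, a small GTPase, went from -1.32 in the low to 0.44 in the high gate. Mcm5, a helicase subunit, went from 1.18 to 2.87, with a quiescent level of 67.8 CPM in the low and 7.54 CPM in the high gate. The gates also differed in phase: of 11 quiescent S cells 6 were in the low and 1 in the high gate. In the activated low gate 10 cells were in S, 24 in G2/M and 0 in G1. The part of phase in these ratios was not tested. Each gate value rests on 34 to 46 cells of 1 culture, and the difference between gates was not tested.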
